A study of Mus musculus with 20 samples.

Results

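Retnla, Alox15, Cd209a, Mgl2, Fcna and Il4ra are genes used to mark alternative activation of macrophages, or monocytes that turn into dendritic cells. All 6 were found by symbol among the 16003 genes of the single-cell count table, and their counts are given for every cluster and library. The series measured single cells of the mouse spinal cord after a contusion injury, with and without depletion of microglia. Each of its 6 single-cell libraries was made from adult female C57BL/6J mice, 8-10 weeks old, that ate vehicle or PLX5622 chow, starting 2 weeks before surgery. PLX5622 is an inhibitor of the CSF1 receptor, on which microglia depend, and the labels give it at 1200 ppm. Injured mice received a 75 kdyne contusion at T9 and were taken at 7 or 28 days post injury (dpi), and sham mice had the laminectomy alone. The vehicle groups are therefore sham, 7 dpi and 28 dpi, and the PLX5622 groups are the same 3, each as 1 library of 3-4 pooled mice; the sham libraries carry a label of 7 and 28 d together. Mice were not perfused and 1 cm of cord was taken with its meninges, so blood and meningeal cells can be among the cells.

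The proteins of these genes have different roles in macrophages. The cytokines IL-4 and IL-13 bind receptors that contain the IL-4 receptor alpha chain, the product of Il4ra, and activate the transcription factor STAT6. In mouse macrophages STAT6 raises the expression of Retnla, a secreted resistin-like protein, and of Mgl2, a C-type lectin that binds galactose. Alox15 is a lipoxygenase that oxidizes arachidonic acid and is abundant in resident macrophages of the peritoneum. Cd209a is a C-type lectin of monocyte-derived dendritic cells, and Fcna encodes ficolin A, a soluble pattern recognition protein of the lectin complement pathway.

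Promoters of the secreted proteins and lectins that marked cluster 3 are shown because STAT6 and PU.1, the factor that sets up myeloid cells, act at such genes. They are RefSeq sequences of GRCm38.p6, from 250 bases before to 50 bases after the start site, written 5′ to 3′ on the gene's strand. Capitals mark matches to the STAT6 motif TTCNNNNGAA or to GGAAGT, the core of the PU.1 motif, on either strand.
Retnla (chr16:48842359-48842658, plus strand): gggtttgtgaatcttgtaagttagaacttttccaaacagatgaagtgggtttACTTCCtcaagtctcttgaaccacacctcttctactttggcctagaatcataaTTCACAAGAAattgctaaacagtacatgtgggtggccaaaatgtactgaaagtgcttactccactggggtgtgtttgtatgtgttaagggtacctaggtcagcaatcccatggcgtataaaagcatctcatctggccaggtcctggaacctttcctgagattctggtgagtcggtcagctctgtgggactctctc
Fcna (chr2:25627925-25628224, minus strand): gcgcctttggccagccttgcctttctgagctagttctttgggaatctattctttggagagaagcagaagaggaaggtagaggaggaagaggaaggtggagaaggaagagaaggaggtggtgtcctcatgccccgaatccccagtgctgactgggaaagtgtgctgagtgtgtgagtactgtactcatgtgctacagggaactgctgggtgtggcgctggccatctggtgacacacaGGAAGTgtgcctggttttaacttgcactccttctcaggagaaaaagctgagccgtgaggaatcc
Mgl2 (chr11:70130107-70130406, plus strand): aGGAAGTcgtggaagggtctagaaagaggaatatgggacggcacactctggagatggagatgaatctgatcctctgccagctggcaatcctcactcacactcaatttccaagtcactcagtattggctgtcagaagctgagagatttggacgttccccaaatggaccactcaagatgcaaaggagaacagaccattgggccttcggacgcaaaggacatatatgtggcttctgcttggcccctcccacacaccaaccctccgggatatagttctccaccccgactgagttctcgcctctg
Cd209a (chr8:3748935-3749234, minus strand): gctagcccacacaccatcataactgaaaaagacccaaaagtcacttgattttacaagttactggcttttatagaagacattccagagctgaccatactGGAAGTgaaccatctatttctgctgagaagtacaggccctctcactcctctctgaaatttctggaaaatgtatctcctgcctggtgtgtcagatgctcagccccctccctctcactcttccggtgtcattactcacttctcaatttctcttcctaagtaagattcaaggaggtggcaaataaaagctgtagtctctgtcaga

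The Retnla promoter held the STAT6 motif once, 145 bases before the start site, and the promoters of Fcna, Mgl2, Cd209a and Il4ra (chr7:125552021-125552320, plus strand) held none. Of all 32851 promoters in the RefSeq table, 6.95% held this motif. The PU.1 core occurred once in each of the promoters printed and not in that of Il4ra, and 23.8% of all promoters held it. The shorter STAT motif TTCNNNGAA, present in 8.30% of all promoters, was in none of the 5. A match is a description of these letters and no measurement of binding. By the GENCODE annotation of GRCm38, Mgl2 (chr11:70130329-70137550) and Alox15 (chr11:70344152-70352031) lie on 1 chromosome with 206601 bases between them, and Clec10a, which encodes another galactose lectin, lies between them (chr11:70156197-70170834). The 6 genes are all protein coding.

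The table held 21016 cells in 14 clusters numbered by the authors, from 1795, 7439 and 9846 cells of the sham, 7 dpi and 28 dpi vehicle libraries and 492, 504 and 940 cells of the PLX5622 libraries. A count is a unique molecular identifier (UMI), which stands for 1 captured mRNA molecule; median UMIs per cell were 2268.5-5127 between libraries. Cluster 0 was microglia-like and cluster 1 was like monocyte-derived macrophages (MDMs) by their markers. Cluster 3, with 1067 cells, was led by Retnla, Alox15, Cd209a and Fcna together with Ccr2 and MHC class II genes, had its highest values for 2 of 5 monocyte, 4 of 6 conventional dendritic cell and 4 of 4 border macrophage markers, and is called by its number. These 4 members therefore took part in defining the cluster, and their height there is a description. With 1 library per condition no difference could be tested, and intervals cover counting error only. In all, 44 barcodes occurred in more than 1 library, among them those of 3 cells of cluster 3.

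Of the 6 genes, 5 were read in few cells and Il4ra in many. Over all libraries Retnla had 3348 UMIs in 68 cells, Alox15 929 in 152, Cd209a 675 in 186, Mgl2 372 in 139, and Fcna 918 in 262. Il4ra had 3860 UMIs in 3180 cells and was read in all 14 clusters. Cluster 3 held 99.1% of the UMIs of Retnla, 93.5% of Cd209a, 92.4% of Alox15, 86.0% of Mgl2 and 82.7% of Fcna, but 6.22% of those of Il4ra. So 5 of the genes describe cells of cluster 3, and the receptor describes no single cluster.

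To see how far free RNA in the droplets could carry these reads, each cell was thinned to 1000 UMIs. Cluster 3 was set beside endothelial-like, astrocyte-like and ependymal-like cells, which should lack the genes other than Il4ra. In 2122 such cells (median 2697.5 UMIs before thinning), 0.0471% had a UMI of Retnla, and the same share had one of Alox15 and of Cd209a, while 0.0943% had one of Fcna and none had one of Mgl2. In 992 cells of cluster 3 (median 2990.5 UMIs) the shares were 3.33% for Retnla, 7.86% for Alox15, 9.68% for Cd209a, 8.47% for Fcna and 6.05% for Mgl2. For Il4ra 1.98% of the endothelial-like, astrocyte-like and ependymal-like cells and 5.44% of cluster 3 had a UMI, the smallest ratio of the 6. Its level differed between these cells, at 33.2 CPM in the endothelial-like and 6.61 in the ependymal-like cluster. The 1.98% is therefore no measure of free RNA alone. In clusters 0 and 1 the shares of Retnla, Alox15, Cd209a, Mgl2 and Fcna were 0-0.164%, with intervals that overlap those of the cells that should lack them.

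**Figure D1:**
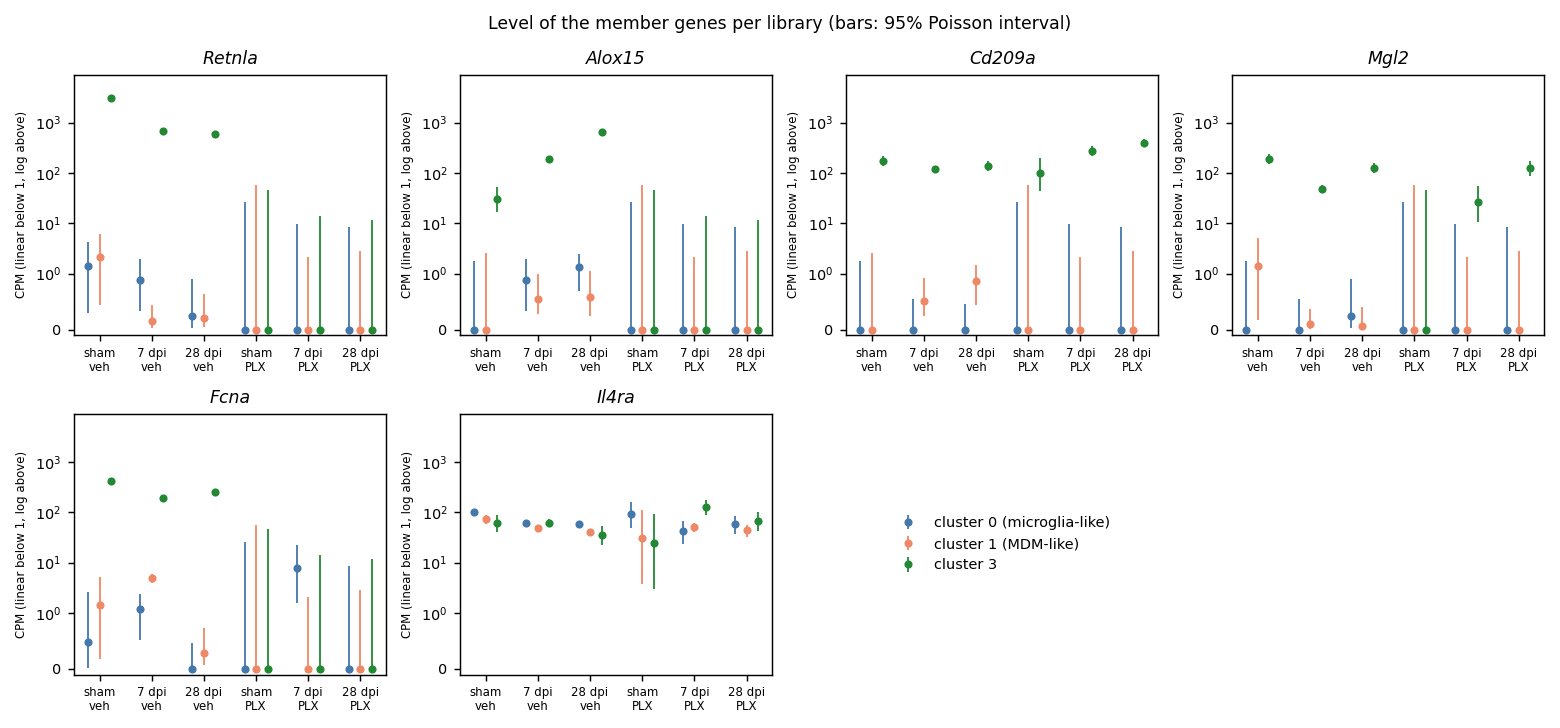
Level of each gene in CPM (UMIs of the gene per 1000000 UMIs of all cells of a cluster in a library) in the microglia-like cluster 0, the MDM-like cluster 1 and cluster 3, for the 3 vehicle (veh) and 3 PLX5622 (PLX) libraries; bars are exact 95% Poisson intervals and the axis is linear below 1 and logarithmic above. Retnla, Alox15 and Fcna sit above 30 CPM in cluster 3 of every vehicle library and at 0 in the PLX5622 libraries as the table lists them, Cd209a is above 90 CPM in all 6, and Il4ra is between 25.1 and 126 CPM in the 3 clusters of all libraries.

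Il4ra, the receptor chain, was read in all 3 myeloid clusters of every library and was lower in injured than in sham vehicle cord in clusters 0 and 1. Levels are counts per 1000000 UMIs (CPM) of the cells of a cluster. In cluster 0 Il4ra was at 102 CPM in sham, 62.4 at 7 dpi and 58.9 at 28 dpi under vehicle, and at 91.8, 41.7 and 58.2 CPM under PLX5622. In cluster 1 it was at 72.6, 49.6 and 40.9 CPM under vehicle and at 30.8, 50.4 and 43.5 CPM under PLX5622, where the sham value rests on 2 UMIs. In cluster 3 it was at 61.4, 61.0 and 36.1 CPM under vehicle and at 25.1, 126 and 67.4 CPM under PLX5622. The highest of these 18 values is that of 7 dpi PLX5622 in cluster 3, from 33 UMIs in 15 of 29 cells, and its interval (86.4-176) lies above those of clusters 0 (23.9-67.8) and 1 (40.4-62.1) in that library. In sham vehicle, cluster 0 was the highest of the 3, with an interval (88.9-117) that lies above those of clusters 1 and 3. Under vehicle, log2 ratios over sham in cluster 0 were -0.71 at 7 dpi (95% interval -0.95 to -0.47) and -0.79 at 28 dpi (-1.03 to -0.55). The median of all genes with at least 100 UMIs moved the same way there, by -0.54 over 6623 genes at 7 dpi and by -0.44 over 7162 genes at 28 dpi, so much of this difference is shared with other genes of these libraries. In cluster 1 the log2 ratios were -0.55 (-0.84 to -0.24) and -0.83 (-1.13 to -0.51), beside a median of -0.25 for all genes at 7 dpi. Over the alternative settings the 7 dpi ratios ranged from -0.97 to -0.15 in cluster 0 and from -0.70 to -0.26 in cluster 1. Those at 28 dpi ranged from -1.05 to -0.34 and from -0.88 to -0.56. The direction held throughout, while the size, at 7 dpi above all, depended on the setting.

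PLX5622 libraries did not differ from vehicle in Il4ra in MDM-like cells beyond counting error. The log2 ratio in cluster 1 at 7 dpi was 0.02 (-0.31 to 0.34), and at 28 dpi it was 0.09 (-0.33 to 0.49). In cluster 3 it was 1.04 (0.44 to 1.60) at 7 dpi, but 0.03 without the 5 highest cells of each library, which hold 63.6% of the PLX5622 UMIs and 9.77% of those of vehicle, and at 28 dpi it was 0.90 (-0.02 to 1.82), an interval that includes 0. Pooled over libraries, clusters 0, 3, 7 and 9 were the highest at 65.2, 61.1, 60.7 and 58.9 CPM, and these neighbours in the order do not differ beyond their intervals; cluster 7 was B cell-like and cluster 9 neutrophil-like. The lowest were clusters 13, 11 and 6 at 4.77, 5.03 and 6.61 CPM. This order pools libraries whose levels and numbers of cells differ, and it does not hold in each of them. At 28 dpi under vehicle, cluster 3 (36.1 CPM) lay below clusters 1 (40.9) and 8 (42.8).

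Other genes of IL-4 and IL-13 signaling were compared in the same clusters. Of the 12 genes listed, 9 were in the table, and neither Il4 nor Il13 was among them. In cluster 1 at 7 dpi over sham under vehicle, 7 could be compared and 1 passed 2-fold, beside 4.09% of all genes with 100 or more UMIs that were more than 2-fold higher and 11.0% more than 2-fold lower; Il4ra was in neither group. The 1 that passed was Il13ra1, a partner chain of Il4ra in the receptor for IL-13, with a log2 ratio of -1.53. Jak1, a kinase of the receptor, had a log2 ratio of -0.05, Stat6 one of -0.06, and Il2rg, the other partner chain, one of -0.08. In cluster 0 at 7 dpi over sham, 6 could be compared: Il2rg had a log2 ratio of 1.66, Il13ra1 of -1.17, Tyk2, another kinase of the receptor, of -1.02, Jak1 of -0.61, Jak3 of -0.25 and Stat6 of -0.20, and Il2rg was at 1.49 at 28 dpi over sham. In cluster 3 none of 4 passed 2-fold at 7 dpi PLX5622 over vehicle, which is no result about the list beside 2.13% of all genes that were more than 2-fold higher and 4.39% lower, and Stat6 was at 0.01, Jak1 at -0.12, Il13ra1 at -0.34 and Il2rg at 0.47.

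Among other alternative activation genes, Chil3, a chitinase-like protein, was highest at 7 dpi in cluster 1, with 2.12, 39.8 and 1.30 CPM in sham, 7 dpi and 28 dpi under vehicle, log2 ratios of 4.23 for 7 dpi over sham and -4.94 for 28 over 7 dpi, and 119 CPM at 7 dpi under PLX5622. Tgm2, a transglutaminase, had log2 ratios of 1.70 and -2.06 in the same pairs. Of the 7 genes of that list compared at 7 dpi over sham, 2 passed 2-fold higher and 3 lower, beside 4.09% and 11.0% of all genes compared. The 3 lower were Klf4 (-1.39), Egr2 (-1.76) and Il1rn (-1.93), and Slc7a2 was at 0.42.

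Alox15 was higher in cluster 3 at each later vehicle time point, and Retnla, Fcna, Mgl2 and Cd209a were not. Alox15 was at 30.7 CPM (14 UMIs) in sham, 193 (420 UMIs) at 7 dpi and 665 (424 UMIs) at 28 dpi under vehicle. The log2 ratios over sham were 2.65 (1.89 to 3.53) and 4.44 (3.67 to 5.32), which are 6.27-fold and 21.6-fold, and that of 28 over 7 dpi was 1.79 (1.59 to 1.98). With clusters 0, 1 and 3 pooled these were 2.10, 2.49 and 0.38. The share of cells of cluster 3 with a UMI moved the same way, from 3 of 75 (4.00%) to 51 of 602 (8.47%) and 50 of 284 (17.6%, interval 13.4-22.5), and after thinning from 1.52% to 6.54% and 15.9%. No single cell carried the values at 7 and 28 dpi, the highest holding 24 UMIs at 7 dpi and 26 at 28 dpi. In sham 1 of the 3 positive cells held 7 of the 14 UMIs (50%), so the folds over sham rest on few cells.

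Other enzymes of the leukotriene and prostaglandin pathway were compared in the same cells. In cluster 3 at 28 dpi over sham under vehicle, 0 of 4 passed 2-fold, where 2.96% of all genes compared were more than 2-fold higher and 4.56% lower, a background against which 0 of 4 is no result about the list: Ltc4s, which makes leukotriene C4, had a log2 ratio of 0.03, Ptgs1, cyclooxygenase 1, one of 0.15, Alox5ap, which presents arachidonic acid to 5-lipoxygenase, one of -0.26, and Hpgd, which degrades prostaglandins, one of -0.31.

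Retnla had the most UMIs of the 6 in cluster 3 over all libraries together, from few cells. It was at 3123 CPM (1423 UMIs) in sham, 693 (1511 UMIs) at 7 dpi and 604 (385 UMIs) at 28 dpi under vehicle, and log2 ratios over sham were -2.17 (-2.28 to -2.07) and -2.37 (-2.54 to -2.21). These narrow intervals do not describe the cells: the sham value came from 8 of 75 cells, and 1 cell held 1001 of its 1423 UMIs (70.3%), without which the sham level was 959 CPM. At 7 dpi 25 of 602 cells (4.15%) had a UMI, the highest 241, and at 28 dpi 9 of 284 (3.17%) did, the highest 145. Without the 5 highest cells of each library the log2 ratios were 4.19 and 1.60, in the other direction; this leaves out 5 of 8 positive cells with 99.6% of the UMIs in sham, 5 of 25 with 62.9% at 7 dpi and 5 of 9 at 28 dpi, so the setting weighs most on the smallest library.

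Fcna was at 410 CPM (187 UMIs) in sham, 190 (413 UMIs) at 7 dpi and 249 (159 UMIs) at 28 dpi under vehicle, in 16 of 75 cells (21.3%), 76 of 602 (12.6%) and 45 of 284 (15.8%). The sham library was again the highest, and log2 ratios over sham were -1.11 (-1.37 to -0.86) and -0.72 (-1.03 to -0.41). Without the 5 highest cells of each library they were 0.66 and 0.87; the setting leaves out 80.2% of the UMIs in sham, 28.3% at 7 dpi and 38.4% at 28 dpi, and the 2 highest sham cells had 66 and 48 UMIs. In cluster 1 Fcna was at 4.88 CPM at 7 dpi under vehicle, from 97 UMIs in 83 of 3023 cells, 72 of which had 1, and at 0.288 CPM (4 UMIs) at 28 dpi. Fcnb, the other mouse ficolin, had 122 UMIs over all libraries, of which 3 were in cluster 3.

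Of the lectins, Mgl2 was lowest at 7 dpi under vehicle, and Cd209a had no clear order. Cd209a was at 173 CPM (79 UMIs) in sham, 119 (260 UMIs) at 7 dpi and 138 (88 UMIs) at 28 dpi, with log2 ratios over sham of -0.54 (-0.91 to -0.16) and -0.33 (-0.78 to 0.13). The sham UMIs came from 5 cells, of which 2 had 37 and 30, while 90 of 602 cells (15.0%) had one at 7 dpi and 31 of 284 (10.9%) at 28 dpi; the share of cells therefore goes against the CPM and no order is read from either. Mgl2 was at 191 CPM (87 UMIs) in sham, 48.6 (106 UMIs) at 7 dpi and 127 (81 UMIs) at 28 dpi, in 16 of 75 (21.3%), 49 of 602 (8.14%) and 39 of 284 cells (13.7%). For Mgl2 the level and the share of cells have the same order, but both come from the same counts. The shares are not thinned, and median depths in cluster 3 were 6065, 2990 and 1830 UMIs in sham, 7 dpi and 28 dpi. The log2 ratios of Mgl2 were -1.97 (-2.40 to -1.55) for 7 dpi over sham and -0.59 (-1.04 to -0.13) for 28 dpi over sham. That of 28 over 7 dpi was 1.38 (0.95 to 1.82). The value for 28 dpi over sham was 0.44 without the 5 highest cells of each library, which hold 71.3% of the UMIs in sham and 33.3% at 28 dpi, and thus changed direction.

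All 6 genes had at least 100 UMIs in cluster 3 of sham and 7 dpi vehicle together, where 3.48% of 3387 such genes were more than 2-fold higher at 7 dpi and 5.52% more than 2-fold lower. Alox15 was in the first group and Retnla, Mgl2 and Fcna in the second. Without the 5 highest cells of each library Retnla and Fcna changed direction. Without the single sham cell that held most Retnla UMIs, Retnla was at 959 CPM in sham beside 693 at 7 dpi, under 2-fold. Mgl2 stayed lower in every setting, but its smallest log2 ratio was -0.80, also under 2-fold. At 28 dpi over sham 2.96% of 1556 genes were more than 2-fold higher and 4.56% more than 2-fold lower, and of 5 members with enough UMIs Alox15 was in the first group and Retnla in the second. Retnla changed direction here too without the 5 highest cells of each library. The median log2 ratio of the 6 members at 7 dpi over sham was -0.83 and that of all genes -0.16. Of 5 other alternative activation genes compared at 7 dpi over sham, 1 was more than 2-fold higher, Tgm2 (log2 ratio 1.48), and 3 were lower, Klf4 (-1.77), Mrc1 (-1.86) and Chil3 (-2.22). Of 6 other C-type lectins, 2 were more than 2-fold lower, Mrc1 and Clec4a2 (-1.22), and Clec10a was at -0.84, Clec12a at -0.76, Clec7a at -0.18 and Clec4n at 0.14.

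Border macrophage cells were present in cluster 3 in different shares between libraries. The levels of Fcna, Mgl2 and Cd209a under vehicle had the same order, though for Cd209a the share of cells did not. Cells with 2 or more UMIs of Mrc1, Lyve1, Cd163 and Cbr2 together made up 28 of 75 cells (37.3%) in sham, 61 of 602 (10.1%) at 7 dpi and 60 of 284 (21.1%) at 28 dpi under vehicle, and 1 of 14, 1 of 29 and 1 of 63 under PLX5622. The summed level of the 4 markers was 922, 203 and 687 CPM under vehicle and 37.6, 15.2 and 19.3 CPM under PLX5622. In these border marker cells Fcna was at 873, 1062 and 898 CPM in the 3 vehicle libraries, and in the other cells of cluster 3 at 0, 74.3 and 86.4 CPM. All 187 sham UMIs of Fcna were in border marker cells, and without the 2 highest cells of each library the levels in these cells were 359, 878 and 655 CPM, the sham level then being the lowest.

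Retnla was at 6141, 3963 and 2670 CPM in the border marker cells and at 447, 261 and 84.4 CPM in the others, in the order sham, 7 dpi and 28 dpi. The single cell with 1001 UMIs was a border marker cell that also had 2 or more UMIs of the monocyte and of the conventional dendritic cell markers, and without it the sham level in those cells was 1580 CPM, below 7 and 28 dpi. Alox15 was at 65.4, 110 and 172 CPM in the border marker cells, and at 0, 204 and 789 CPM in the others, so that its value at 28 dpi came mainly from cells with fewer than 2 UMIs of these markers. Mgl2 was at 262, 55.0 and 195 CPM against 128, 47.8 and 110 CPM, and Cd209a at 205, 55.0 and 0 CPM against 145, 128 and 173 CPM. Over the vehicle libraries Cd209a had 58 UMIs in border marker cells and 369 in the others. The part of border macrophages in the differences between libraries was not tested.

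**Figure D2:**
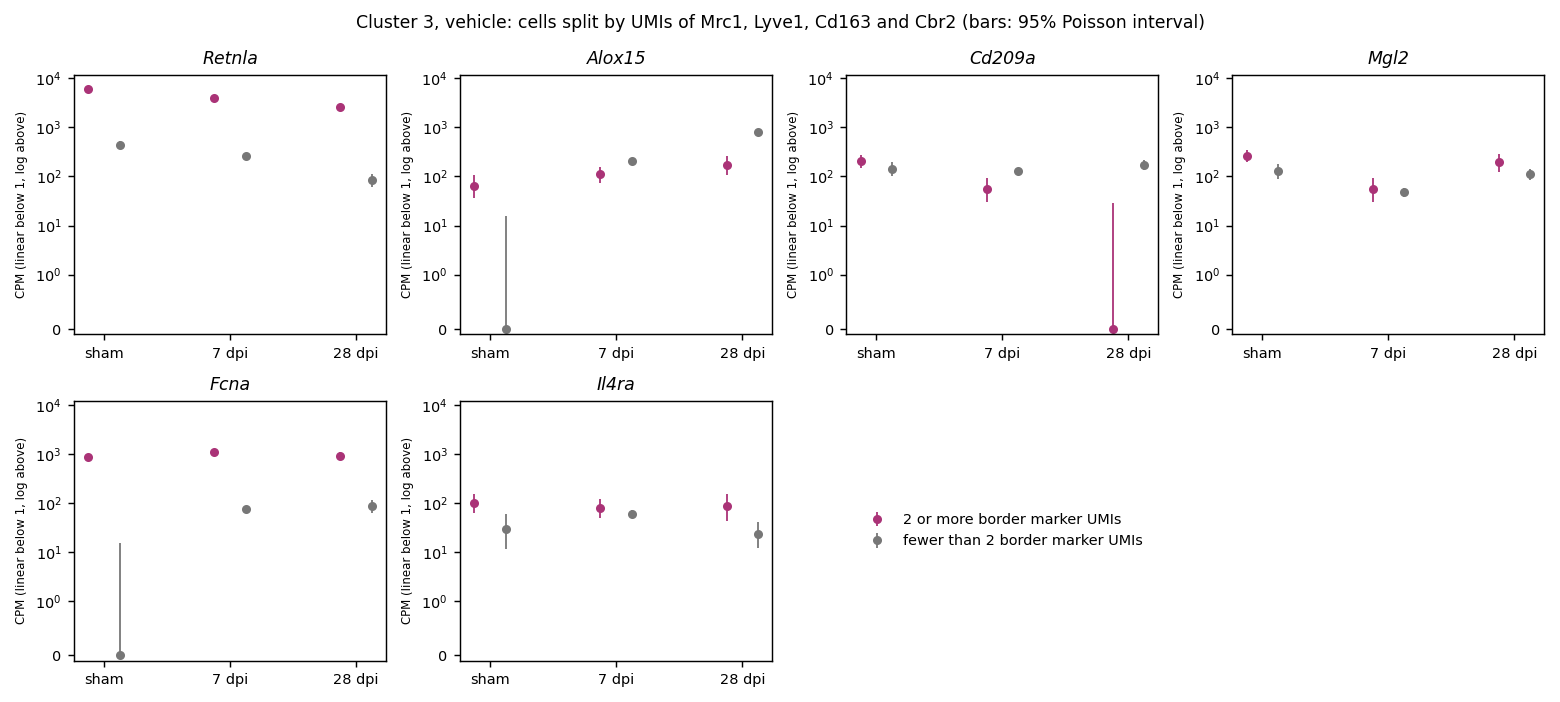
Level in CPM of each gene in cells of cluster 3 with 2 or more (purple) and with fewer than 2 (grey) UMIs of the border macrophage markers Mrc1, Lyve1, Cd163 and Cbr2, in the 3 vehicle libraries; bars are exact 95% Poisson intervals and the axis is linear below 1 and logarithmic above. Fcna and Retnla are higher in border marker cells of every library, and Alox15 reaches 789 CPM at 28 dpi in the cells with fewer than 2 such UMIs.

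Within cluster 3 the genes fell partly into different cells. After thinning the vehicle cells to 1000 UMIs, 37 of 78 Alox15-positive cells (47.4%, interval 36.0-59.1) also had Fcna, against 5.77% of the cells without Alox15. Of 33 Retnla-positive cells 12 (36.4%) had Fcna, against 8.38% of the rest. Of 78 Cd209a-positive cells 12 (15.4%) had Mgl2, against 4.91% of the rest, and 0 had Alox15 and 0 had Fcna, which allows a share of up to 3.85% for each. At full depth, 75 of 104 Alox15-positive vehicle cells had Fcna (72.1%) and 1 of 104 had Cd209a. Alox15 and Fcna thus shared cells that mostly lacked Cd209a. Mgl2 did not separate as cleanly. At full depth 33 of its 104 vehicle cells held Cd209a and 12 held Fcna (11.5%, against 14.6% without Mgl2). After thinning, 1 of 52 held Fcna (1.92%, against 9.88%). Of 42 Retnla cells at full depth 26 held Fcna (61.9%, against 12.1% without Retnla). In these cells 10 held Mgl2 and 10 held Alox15 (each 23.8%, against 10.2%), and 3 held Cd209a (7.14%, against 13.4%). After thinning, 3 of 33 Retnla cells held Alox15 (9.09%, against 8.73%) and 4 held Mgl2 (12.1%, interval 3.40-28.2, against 5.59%).

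**Figure D3:**
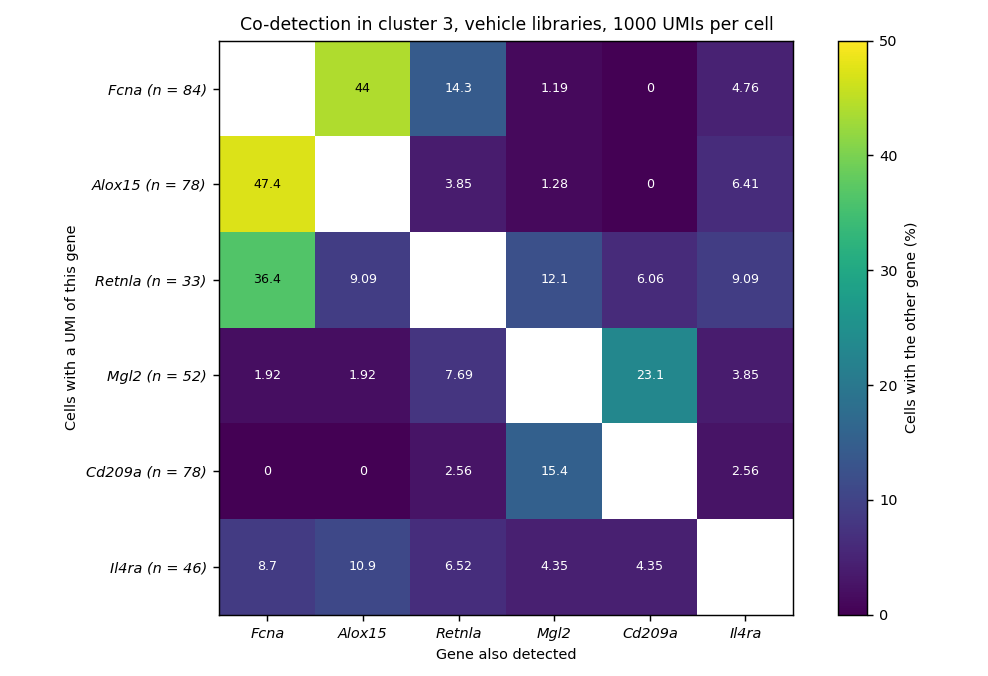
Share of cells of cluster 3 in the vehicle libraries, each thinned to 1000 UMIs, that have a UMI of the gene on the horizontal axis among cells with a UMI of the gene on the vertical axis, in percent; n is the number of such cells. Alox15 and Fcna overlap most (47.4% and 44.0%), and no Cd209a cell has Fcna or Alox15.

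The other genes of these cells, chosen after their values were seen, separated in the same way. Vehicle cells of cluster 3 with Cd209a (126 cells, against 835 without) had more of Klrd1, a lectin-like receptor, at 537 against 54.7 CPM, of Clec10a at 262 against 34.8, of Mgl2 at 306 against 47.6, and of the antigen presentation genes H2-Aa at 8993 against 2733 and Cd74 at 14471 against 4783. They had less Alox15 (26.2 against 301 CPM) and Fcna (6.55 against 269). Median depths were alike, at 2890 and 2659 UMIs. Cells with Mgl2 also had high MHC class II, with H2-Aa at 8435 against 2932 CPM. Retnla was at 4254 CPM in cells with Mgl2 against 560 CPM in cells without, from 1712 UMIs in 10 cells, and at 1837 CPM without the single cell that held 1001 of them; in cells with Cd209a it was at 730 CPM.

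Cells with Alox15 had less MHC class II. In 104 such vehicle cells H2-Eb1 was at 120 CPM against 3395 in the other 857, H2-Ab1 at 200 against 3717 and H2-Aa at 270 against 4108. Ccr2, the receptor by which monocytes leave the marrow, was at 25.8 against 719, and Slpi, a protease inhibitor, was at 8552 against 84.3. Prg4, a lubricating proteoglycan made by large peritoneal macrophages, was at 2048 against 9.48 CPM and Cxcl13, a B cell chemokine, at 2199 against 11.6. Cells with Fcna had more Lyve1 (699 against 10.3 CPM), Timd4, a phosphatidylserine receptor of resident macrophages (289 against 8.11), and Cd163, the haemoglobin scavenger receptor (202 against 16.6), and less of the monocyte gene Plac8 (53.5 against 820). Cells with Retnla had Plac8 at 4.05 against 744 CPM and Marco, a scavenger receptor, at 417 against 15.5. Plac8 is 1 of the 5 monocyte markers; by all of them, 24 of the 42 Retnla cells had 2 or more monocyte marker UMIs, and Retnla was in 4.40% of the vehicle cells with such UMIs and in 4.33% of the others, at 1412 and 339 CPM, the former being 933 CPM without the single cell that held 1001 UMIs.

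**Figure D4:**
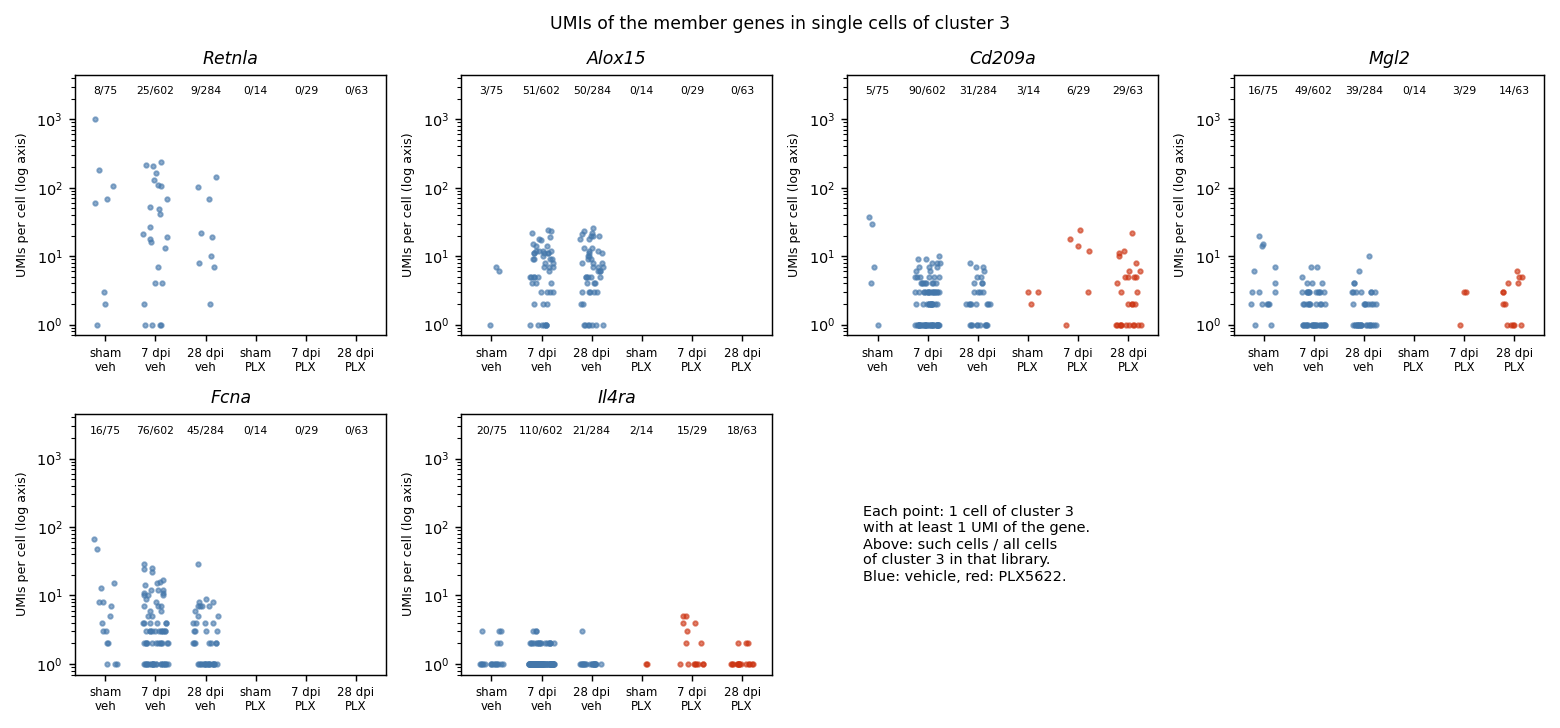
UMIs of each gene per cell of cluster 3, on a logarithmic axis, for cells with at least 1 UMI; numbers above give such cells over all cells of cluster 3 in the library, blue for vehicle and red for PLX5622. The single sham cell with 1001 UMIs of Retnla stands apart, the PLX5622 libraries have no cell with Retnla, Alox15 or Fcna in the table, and 29 of 63 cells have Cd209a at 28 dpi under PLX5622.

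Under PLX5622, cluster 3 had no UMI of Alox15, Fcna or Retnla at 7 and 28 dpi and more Cd209a than under vehicle. Alox15 was in 0 of 29 cells at 7 dpi and 0 of 63 at 28 dpi, which allows shares of up to 10.3% and 4.76%, beside 8.47% and 17.6% under vehicle. Against a floor of 3 counts in place of 0, its level was at least 16.9-fold lower at 7 dpi and at least 69.1-fold lower at 28 dpi. After thinning each cell to 1000 UMIs the bound at 7 dpi was a log2 ratio of -0.74, under 2-fold, and that at 28 dpi was -3.49. The share limits cover the counting of cells in 1 library each and are no test between diets. The floor and the share limits use the same 3 counts.

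Fcna was likewise in 0 of 29 and 0 of 63 cells, beside 12.6% and 15.8% of the vehicle cells, and at least 16.6-fold and 25.9-fold lower in level. Retnla was at least 60.8-fold and 62.7-fold lower in level, but vehicle cells with it were rare (4.15% and 3.17%), and both shares lie under the 10.3% and 4.76% that 0 of 29 and 0 of 63 cells allow. After thinning, the bounds at 7 and 28 dpi were log2 ratios of -1.12 and -2.41 for Fcna and of -1.95 and -3.05 for Retnla, and without the 5 highest cells of each library that of Retnla at 28 dpi was -2.05. In the 14 sham PLX5622 cells Alox15 and Fcna were at 0. The count table lists Retnla and Mgl2 at 0 there too, but it sets genes found in fewer than 3 cells of a library to 0, and the library's own matrix had 14 UMIs of Retnla (175 CPM, interval 95.7-294) and 3 UMIs of Mgl2 (37.5 CPM), each in 1 cell. At 7 and 28 dpi the matrices also held no Retnla, Alox15 or Fcna in cluster 3 of PLX5622.

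Border marker cells were 3 of the 106 PLX5622 cells of cluster 3. In the others at 7 and 28 dpi, 28 and 62 cells, Retnla, Alox15 and Fcna were at 0 UMIs. Vehicle cells with fewer than 2 border marker UMIs had 204 and 789 CPM of Alox15, 261 and 84.4 CPM of Retnla and 74.3 and 86.4 CPM of Fcna at these times. By cells, 0 of 28 allows a share of up to 10.7% and 0 of 62 one of up to 4.84%, and the vehicle shares were 7.76% and 17.4% for Alox15, 2.77% and 1.34% for Retnla and 8.87% and 8.93% for Fcna.

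Cd209a was at 100 CPM (8 UMIs) in sham, 274 (72 UMIs) at 7 dpi and 398 (124 UMIs) at 28 dpi under PLX5622. Against vehicle, its log2 ratio in sham was -0.79 (-2.05 to 0.26), at 7 dpi it was 1.20 (0.80 to 1.58), and at 28 dpi it was 1.53 (1.12 to 1.94). At 7 dpi 6 of 29 cells held these UMIs and the highest had 24; without the 5 highest cells of each library the log2 ratio was -4.41, a setting that leaves 1 PLX5622 cell with Cd209a. At 28 dpi 29 of 63 cells (46.0%, interval 33.4-59.1) had Cd209a, against 10.9% under vehicle (7.54-15.1). Thinned to 1000 UMIs the shares were 19.7% (10.6-31.8) and 8.98% (5.71-13.3), whose intervals overlap. Median depth was 4764 UMIs under PLX5622 and 1830 under vehicle.

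Mgl2 was at 26.6 CPM (7 UMIs) at 7 dpi and 125 (39 UMIs) at 28 dpi under PLX5622, and did not differ from vehicle beyond counting error, with log2 ratios of -0.87 (-2.22 to 0.22) and -0.02 (-0.61 to 0.55). The value at 7 dpi was 1.42 after thinning to 1000 UMIs, and that at 28 dpi was 2.36 with clusters 0, 1 and 3 pooled, so its direction depends on the setting. Of the 17 PLX5622 cells of cluster 3 with Mgl2, 13 also had Cd209a (76.5%, interval 50.1-93.2), compared with 33 of 104 under vehicle (31.7%, 22.9-41.6), at unequal depths. Thinned to 1000 UMIs the shares were 2 of 8 (25.0%) and 12 of 52 (23.1%), so no difference was detectable at equal depth. In the proliferating cluster 8, 24 UMIs of Mgl2 at 7 dpi under PLX5622 were all in 1 of 10 cells.

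Of the genes that had 100 or more UMIs in cluster 3 of both 7 dpi libraries together, 2.13% were more than 2-fold higher under PLX5622 and 4.39% more than 2-fold lower. Of the 6 members, Cd209a and Il4ra were in the first group (neither without the 5 highest cells of each library) and Retnla, Alox15 and Fcna in the second. These 3 had 0 UMIs under PLX5622 and met the minimum of 100 UMIs through the vehicle library alone, which places them among the lower genes in advance, so their count is a description and the same holds at 28 dpi. At 28 dpi 2.96% were more than 2-fold higher and 13.1% more than 2-fold lower, and of 5 members Cd209a was in the first and Retnla, Alox15 and Fcna in the second. The median log2 ratio over all genes was 0.02 and -0.04.

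**Figure D5:**
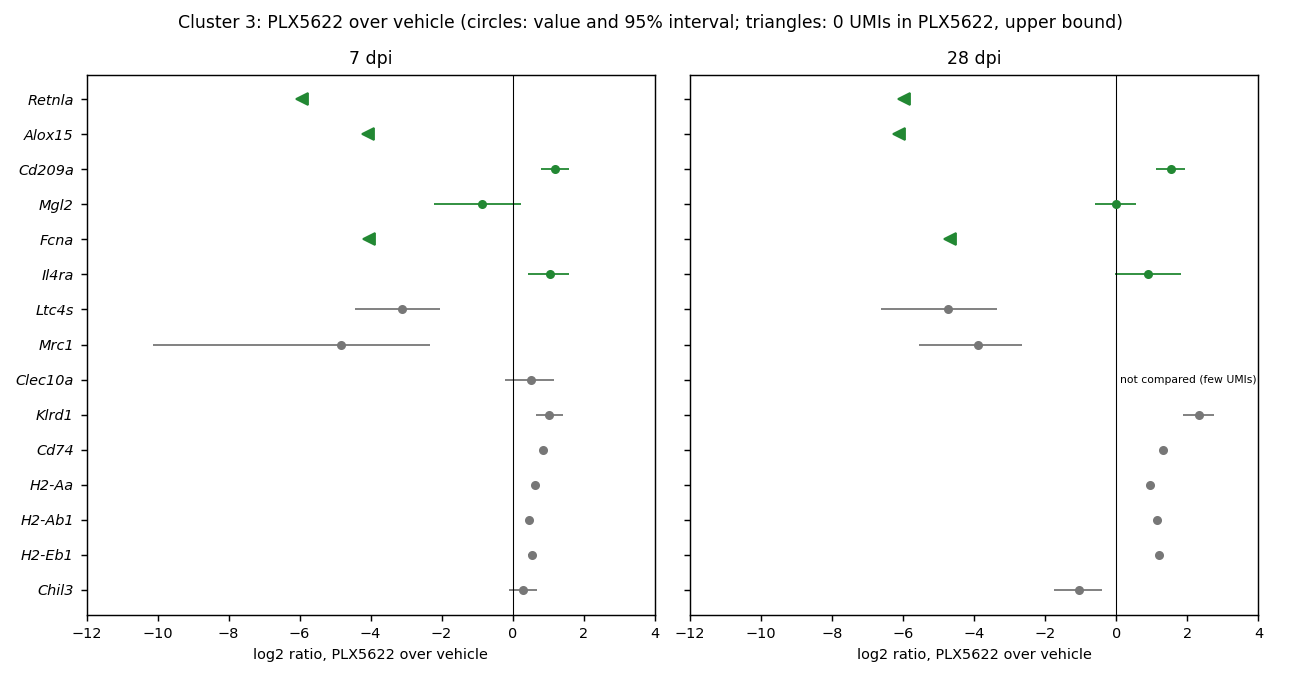
Log2 ratio of PLX5622 over vehicle in cluster 3 at 7 and 28 dpi for the 6 genes (green) and for 9 genes of the lists (grey); circles have exact 95% intervals and triangles are upper bounds for genes with 0 UMIs under PLX5622. Retnla, Alox15 and Fcna lie at or below -4.05 in both panels, Cd209a lies at 1.20 and 1.53, and the MHC class II genes are above 0.

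Some genes of the list for monocyte-derived dendritic cells were higher at 28 dpi under PLX5622. Of 9 such genes compared in cluster 3 at 28 dpi, 5 were more than 2-fold higher under PLX5622 and 0 lower, beside 2.96% and 13.1% of all genes, with a median log2 ratio of 1.07. These were Klrd1 (2.31), Cd74 (1.30), H2-Eb1 (1.20), H2-Ab1 (1.15) and H2-DMb1 (1.07), and H2-Aa was at 0.95. Cells with 2 or more UMIs of the conventional dendritic cell markers were 15 of 63 (23.8%) there and 18 of 284 (6.34%) under vehicle, and those with 2 or more monocyte marker UMIs were 61.9% and 36.3%. These shares depend on depth, and the median was 4764 UMIs at 28 dpi under PLX5622 and 1830 under vehicle. The summed levels, which use no such cut, were 337 and 163 CPM for the dendritic cell markers and 2240 and 1502 CPM for the monocyte markers. The part of such cells in the result was not tested. At 7 dpi 1 of 11 passed 2-fold higher, again Klrd1 (1.04), beside 2.13% of all genes, and the median was 0.53. Of the leukotriene and prostaglandin list, 2 of 4 genes were more than 2-fold lower at 7 dpi and 1 of 3 at 28 dpi, beside 4.39% and 13.1% of all genes; these met the minimum of 100 UMIs through the vehicle library, so the counts are descriptions. Ltc4s had log2 ratios of -3.11 and -4.74 at 7 and 28 dpi, and Ptgs1 one of -4.52 at 7 dpi. Of 5 other alternative activation genes compared at 7 dpi, 1 was more than 2-fold higher and 1 lower, with a median of 0.30. Of 3 compared at 28 dpi, 0 were higher and 2 lower, with a median of -1.05. Among them the mannose receptor Mrc1, also a border macrophage marker, was at -4.83 and -3.90 at 7 and 28 dpi. Alox5ap, which occurs in many myeloid cells, was at 0.57 and 0.34. Of other C-type lectins, Clec7a, the beta-glucan receptor, had log2 ratios of -0.56 and -1.50 and Clec12a, an inhibitory receptor, of -0.92 and 0.44, while Clec4a2 and Clec4n were at -0.12 and -0.11 at 7 dpi. No gene of the ficolin and lectin complement list and none of the resistin family had enough UMIs in cluster 3 to compare.

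Some Cd209a-positive cells under PLX5622 carried markers of plasmacytoid dendritic cells, the interferon-producing dendritic cells. At 28 dpi 10 of 63 cells of cluster 3 (15.9%, interval 7.88-27.3) had 2 or more UMIs of Ccr9, Klk1 and Cox6a2, and 9 of these 10 had Cd209a; at 28 dpi under vehicle such cells were 3 of 284 (1.06%). The summed level of the 3 markers was 465 CPM against 25.1 under vehicle. Without these cells Cd209a was at 351 CPM under PLX5622 (20 of 53 cells) and 137 CPM under vehicle (30 of 281 cells). Cd209d, a relative of Cd209a chosen after its values were seen, was at 144 CPM at 28 dpi under PLX5622 and 4.70 under vehicle, and all its 45 PLX5622 UMIs were in 12 Cd209a-positive cells. In all 38 Cd209a-positive cells of cluster 3 in the PLX5622 libraries together, Clec10a was at 248 CPM, against 37.5 in the 68 without Cd209a. Of these 38 cells, 4 and 5 carried 114 and 135 UMIs of the neutrophil genes S100a8 and S100a9.

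Over the 75 groups of 1 cluster and 1 library with at least 50000 UMIs, the genes most like each member were taken by Pearson correlation of log2(CPM + 10). These correlations share libraries and clusters and are descriptions. For Fcna they were Retnla (0.94), Timd4 (0.93) and Vsig4 (0.91), and for Retnla they were Timd4 (0.96), Fcna (0.94) and Vsig4 (0.93). For Alox15 they were Selp (0.96), Serpinb2 (0.94) and Marco (0.91). Cd209a was most like Clec10a (0.95), Clec4b1 (0.83) and Flt3 (0.82), and Mgl2 most like Tnip3 (0.91), Flt3 (0.82) and Clec9a (0.78); Flt3 and Clec9a mark conventional dendritic cells. Il4ra was most like H2-D1 (0.79), Apbb1ip (0.78) and Tm6sf1 (0.78). Among the members themselves, Mgl2 had correlations of 0.75 with Cd209a, 0.71 with Fcna and 0.66 with Retnla, so these do not separate cleanly, and Il4ra had correlations of 0.14-0.25 with the others.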

How the data were processed

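Spinal cord cells of 6 conditions, 1 library each, were read with 10x 3' V3 chemistry after removal of myelin and dead cells. The authors aligned reads with Cell Ranger to mm10 and filtered and clustered them with Seurat. They deposited counts of UMIs, as a table of 21016 filtered cells with a cluster number per cell and as matrices per library; in the table the authors' processing listed genes found in fewer than 3 cells of a library at 0, and member values were checked in the matrices. The table left out 254 barcodes, which held 2 UMIs of the 6 genes. A stated upper limit of genes per cell was not visible, since cells had up to 8982 genes. Per the labels 14 further samples are bulk RNA-seq, not analysed here. A further gene and a list tied to it are not reported here.

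UMIs were summed per cluster and library and divided by all UMIs there to give CPM. Intervals are exact: Poisson for levels, conditional binomial for ratios and Clopper-Pearson for shares, at 95%. Where a gene had 0 counts, 3 were put in their place and the ratio was given as a bound, and no ratio was given where both had 3 or fewer. A share of 0 is given with the share that 3 cells would make. As each condition was 1 library, nothing was tested; called means past 2-fold with at least 100 UMIs in the pair of libraries. UMIs per library were 7185077, 35694246 and 27768968 under vehicle and 2606149, 4353923 and 3697581 under PLX5622, in the order sham, 7 and 28 dpi, and those of cluster 3 were 455687, 2179067, 637653, 79775, 262894 and 311649. Doublets were left in, and 57 cells of cluster 3 were called doublets by Scrublet in scanpy 1.11.5. Counts were also simulated from a Poisson model, with 200 genes changed by a log2 ratio of 2 or -2. All 200 had the right direction, and 96.4% of unchanged genes lay within their interval in cluster 1 (8303 genes, 7 dpi over sham). The intervals assume that same model, and it holds no clumping of UMIs in single cells. It therefore checks the computation and not how well the intervals cover these data.

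The 6 genes, the lists and the markers were chosen with earlier results of these data known. Named with values are the 6 genes, the 4 genes with the most UMIs of each list that could be compared in the contrast described, and list genes past a log2 ratio of 2 or -2 there. Further list genes are named where those past 2-fold are spelled out or where all genes compared are listed. Also named are the 3 genes most like each member, and others where the text says that they were chosen after their values were seen or where they marked cells. Alternatives were edgeR 4.0.16 TMM factors, DESeq2 1.42.0 size factors, cells with at least 500 genes, no doublets, cells thinned to 1000 UMIs, each cell weighted alike, clusters 0, 1 and 3 together, and other folds and UMI minimums; leaving out border marker cells or the 5 highest cells was added after seeing the data. Scripts ran in R 4.3.3 and in Python 3.11.15 with scipy 1.17.1, pandas 2.3.3 and numpy 2.4.6.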

Additional observations from a re-analysis of the deposited data

Results flagged for a closer look

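Several ratios of the same contrast pointed in opposite directions in different clusters or diets, each with an interval that excluded 0; no such difference was tested, since each condition was 1 library. Cd209a in cluster 3 had a log2 ratio of 7 dpi over sham of -0.54 under vehicle and 1.45 under PLX5622. Fcna at 28 over 7 dpi under vehicle was at -4.08 in cluster 1, 0.40 in cluster 3 and 3.19 in the neutrophil-like cluster 9. The value of cluster 9 compares 7 UMIs in 1 of 189 cells with 1 UMI, and the 4 UMIs of cluster 1 at 28 dpi were in 1 cell. Il4ra at 7 dpi over sham under vehicle was at -0.71 in cluster 0 and -0.55 in cluster 1, but at 2.09 in the astrocyte-like cluster 4 and 1.46 in the proliferating cluster 8, and at 28 dpi over sham these were -0.79, -0.83, 1.65 and 1.42. Il4ra in cluster 4 was low in all vehicle libraries, at 7.70, 32.7 and 24.1 CPM from 6, 6 and 10 UMIs.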

How the results depend on the processing

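Of 296 recomputed ratios, 218 were counted as the same, 64 as moved and 14 as reversed. The 14 do not hold every change of sign: that of Mgl2 for PLX5622 over vehicle at 7 dpi with thinning is not among them. Without the 5 cells with the most UMIs of a gene in each library, Retnla in cluster 3 was at 4.19 and 1.60 for 7 and 28 dpi over sham, Cd209a at a lower bound of 3.75 for 7 dpi over sham and at -4.41 for PLX5622 over vehicle at 7 dpi, Mgl2 at 0.44 for 28 dpi over sham, Fcna at 0.66 and 0.87 for 7 and 28 dpi over sham, and Il4ra at 0.03 for PLX5622 over vehicle at 7 dpi, in place of 1.04. This setting leaves out more of the positive cells in small libraries, most of all sham; for Cd209a it takes out all 5 positive sham cells and 5 of 6 at 7 dpi PLX5622, so that it fixes both directions. With each cell weighted alike, Cd209a was at 0.41 for 7 dpi over sham, Mgl2 at 0.71 for 28 dpi over sham, and Fcna at -0.12 for 28 over 7 dpi. With clusters 0, 1 and 3 together, Mgl2 was at -0.0017 and Fcna at -1.31 for 28 over 7 dpi, Alox15 at 2.49 for 28 dpi over sham and 0.38 for 28 over 7 dpi, Mgl2 at 2.36 for PLX5622 over vehicle at 28 dpi, and the Fcna bound there at -2.30. No ratio was counted as reversed with TMM factors, size factors, a minimum of 500 genes, thinning, or without doublets. Mgl2 for PLX5622 over vehicle at 7 dpi did change sign with thinning, to 1.42, from a value whose interval included 0. TMM factors moved the median of all genes at 7 dpi over sham from -0.25 to 0.01 in cluster 1. In cluster 3 it moved from -0.16 to 0.01 and in cluster 0 from -0.54 to 0.02. Over all settings Il4ra at 7 dpi over sham ranged from -0.97 to -0.15 in cluster 0 and from -0.70 to -0.26 in cluster 1. Without border marker cells Fcna was at lower bounds of 2.58 and 2.80 for 7 and 28 dpi over sham, against a sham library at 0. With a minimum of 50 UMIs, 1 member passed 2-fold higher in cluster 1 at 7 dpi over sham in place of 0, and with a fold of 1.5, 3 were lower in cluster 3 at 28 dpi over sham in place of 1. After thinning to 1000 UMIs the bounds of PLX5622 against vehicle at 7 dpi weakened to -0.74 for Alox15, -1.12 for Fcna and -1.95 for Retnla, those at 28 dpi to -3.49, -2.41 and -3.05, and Mgl2 at 7 dpi went to 1.42. The cause of these differences was not tested. Few cells (14, 29 and 63 in cluster 3 of PLX5622) limit every PLX5622 value. No paired analysis was possible because each condition had 1 library and no comparison rested on a test.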
